A study of Mus musculus with 12 samples.

Results

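The 8 genes Slc9a3, Slc4a4, Car2, Car4, Car12, Car14, Glud1 and Slc38a3 encode proteins with which the kidney reclaims filtered bicarbonate and makes ammonia. They were taken as a list of symbols from a deposited count table of 32047 genes, and all 8 were found in it. Kidney RNA was sequenced in 12 mouse libraries, 4 in each of 3 groups. In the first group, labelled AKI_A_FGF23_R176QR179Q and called FGF23 variant kidneys here, an FGF23 protein changed at positions given in that label was overexpressed. Rhabdomyolysis, in which broken-down skeletal muscle floods the blood, was induced 3 weeks later to injure the kidneys acutely. In the second group, labelled AKI_A_mcherry and called mCherry kidneys here, the label names mCherry, a red fluorescent protein, in place of FGF23. The injury was the same. The letter A in both labels is not explained. The third group has the label NC, an abbreviation left unexplained there, and carries neither an injury nor an overexpressed protein in its label. No uninjured group with the FGF23 variant or with mCherry was analysed here, so the variant was compared only within injured kidneys. The labels do not give the animals' strain, sex or age, the vector or the cells that made the protein, or whether the 4 libraries of a group are 4 animals, so p-values reflect the scatter among these libraries, which may be technical.

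Library totals were 55324078 to 70638283 counts. Fgf23 itself, the check of the labels, had 320 to 517 counts in the 4 FGF23 variant libraries and 0 in the other 8 libraries. Gene counts do not tell the variant from the mouse's own transcript. Values below are CPM after TMM scaling, unless a sentence names FPKM, the deposited value per length of transcript. CPM are counts scaled to a common library size. TMM scaling offsets differences in composition between libraries and takes most genes as unchanged. A change is called where the Benjamini-Hochberg adjusted p of edgeR's quasi-likelihood test over all genes tested was under 0.05, and log2 fold changes are given with their standard error. All 8 genes passed the filter on low counts in all 3 comparisons.

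Most filtered bicarbonate is taken back in the proximal tubule, the first stretch of the nephron. Its cells secrete protons through the sodium-proton exchanger NHE3 (Slc9a3), carbonic anhydrases interconvert carbon dioxide and bicarbonate on both sides of the membrane, and bicarbonate leaves toward the blood through the cotransporter NBCe1 (Slc4a4). The same cells take up glutamine through Slc38a3 and split it in mitochondria, where glutamate dehydrogenase (Glud1) releases ammonia, which carries acid into the urine and leaves new bicarbonate for the blood.

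The promoters of 4 genes are shown, from RefSeq on GRCm38.p6, chosen after the values were seen because their genes span the range of the results. Car14 had the largest fall of the 8 in injured kidneys, Slc9a3 and Slc4a4 are the transporters, and Glud1 passed the test in no comparison. Each runs from 250 bases before to 50 bases after the gene's start, 5′ to 3′ on the gene's strand, with every CG in capitals. The positions are chr3:95904636-95904935 (minus strand) for Car14, chr13:74121163-74121462 (plus strand) for Slc9a3, chr5:89027716-89028015 (plus strand) for the downstream of the 2 Slc4a4 starts, and chr14:34310477-34310776 (plus strand) for Glud1.
Car14: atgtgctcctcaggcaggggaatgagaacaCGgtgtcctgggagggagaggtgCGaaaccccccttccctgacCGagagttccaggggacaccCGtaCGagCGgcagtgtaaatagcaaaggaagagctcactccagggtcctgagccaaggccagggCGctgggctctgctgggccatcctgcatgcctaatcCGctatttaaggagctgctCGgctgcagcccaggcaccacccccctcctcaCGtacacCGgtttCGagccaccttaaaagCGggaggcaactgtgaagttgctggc
Slc9a3: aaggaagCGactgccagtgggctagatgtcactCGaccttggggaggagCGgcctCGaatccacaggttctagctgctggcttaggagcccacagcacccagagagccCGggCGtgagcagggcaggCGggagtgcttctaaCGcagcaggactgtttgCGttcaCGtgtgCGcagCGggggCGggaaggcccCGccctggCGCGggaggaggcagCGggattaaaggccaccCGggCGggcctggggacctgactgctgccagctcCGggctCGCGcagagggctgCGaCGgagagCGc
Slc4a4, downstream start: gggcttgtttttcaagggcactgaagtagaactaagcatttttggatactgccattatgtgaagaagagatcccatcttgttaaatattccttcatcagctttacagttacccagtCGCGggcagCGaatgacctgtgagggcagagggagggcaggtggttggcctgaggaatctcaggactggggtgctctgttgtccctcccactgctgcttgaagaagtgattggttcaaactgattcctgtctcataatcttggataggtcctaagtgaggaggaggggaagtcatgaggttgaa
Glud1: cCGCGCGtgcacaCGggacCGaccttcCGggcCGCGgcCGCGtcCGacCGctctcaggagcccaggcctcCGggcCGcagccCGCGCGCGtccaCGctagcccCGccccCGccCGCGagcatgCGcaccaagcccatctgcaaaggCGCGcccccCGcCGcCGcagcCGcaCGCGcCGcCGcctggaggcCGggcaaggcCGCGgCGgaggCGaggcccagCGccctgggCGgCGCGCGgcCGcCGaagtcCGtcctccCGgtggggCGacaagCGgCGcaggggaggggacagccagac
The Glud1 window held 51 CG pairs, more than 99.3% of the 32851 promoters read, and the Slc9a3 window held 25. Car14 had 13 and the Slc4a4 downstream start had 3, against a median of 7 over all promoters. The upstream Slc4a4 start, on the same strand, had 50. In humans the kidney form of NBCe1 is known to start at the internal promoter, and gene counts do not separate the forms. Car4 had 15 and Car12 had 9, and Car2 and Slc38a3 were not matched to a promoter. The HNF4A site CAAAGTCCA, the HNF1 consensus and the AP-1 site TGACTCA were searched on both strands and were found in 0 of the 7 windows. Of all promoters, 0.475% held the first, 0.399% the second and 5.2% the third.

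Between the injured groups, FGF23 variant kidneys had more Slc9a3, Car4, Car12 and Car14 RNA and less Car2 RNA than mCherry kidneys, while Slc4a4, Glud1 and Slc38a3 did not pass the test. That is 4 genes higher and 1 lower of 8, where 23.1% of 18824 genes tested were called, 11.7% higher and 11.4% lower. Of the 8 genes, 3 had all FGF23 variant libraries above all mCherry libraries and 1 had them all below. Of all genes tested, 28.4% did not overlap, 14.5% higher and 13.9% lower. The median log2 fold change of the 8 was 0.64, against 0.0084 over all genes tested.

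Injured mCherry kidneys were next set against NC kidneys. Slc9a3, Slc4a4, Car4, Car12, Car14 and Slc38a3 were lower in mCherry kidneys, Car2 was higher, and Glud1 did not pass the test. That is 1 gene higher and 6 lower of 8, where 53.1% of 18724 genes tested were called, 27.2% higher and 26.0% lower. The libraries of both groups did not overlap for 5 of the genes that fell and for Car2, against 51.5% of all genes tested (26.0% lower and 25.5% higher). The median log2 fold change of the 8 was -1.98, against -0.0026 over all genes tested.

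FGF23 variant kidneys, set against NC kidneys, had less Slc9a3, Slc4a4, Car4, Car12 and Car14, and none of the 8 was called higher. That is 0 higher and 5 lower, where 42.3% of 19005 genes tested were called, 21.7% higher and 20.6% lower. All 5 had every FGF23 variant library below every NC library, and 0 of the 8 had every library above. Of all genes tested, 41.6% did not overlap, 21.1% lower and 20.4% higher. The median log2 fold change was -0.91, against 0.011 over all genes tested. The 3 comparisons share libraries pairwise, so their values stand side by side and were not tested against each other. In bulk tissue, fewer cells of a type and less RNA per cell cannot be told apart.

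**Figure D1:**
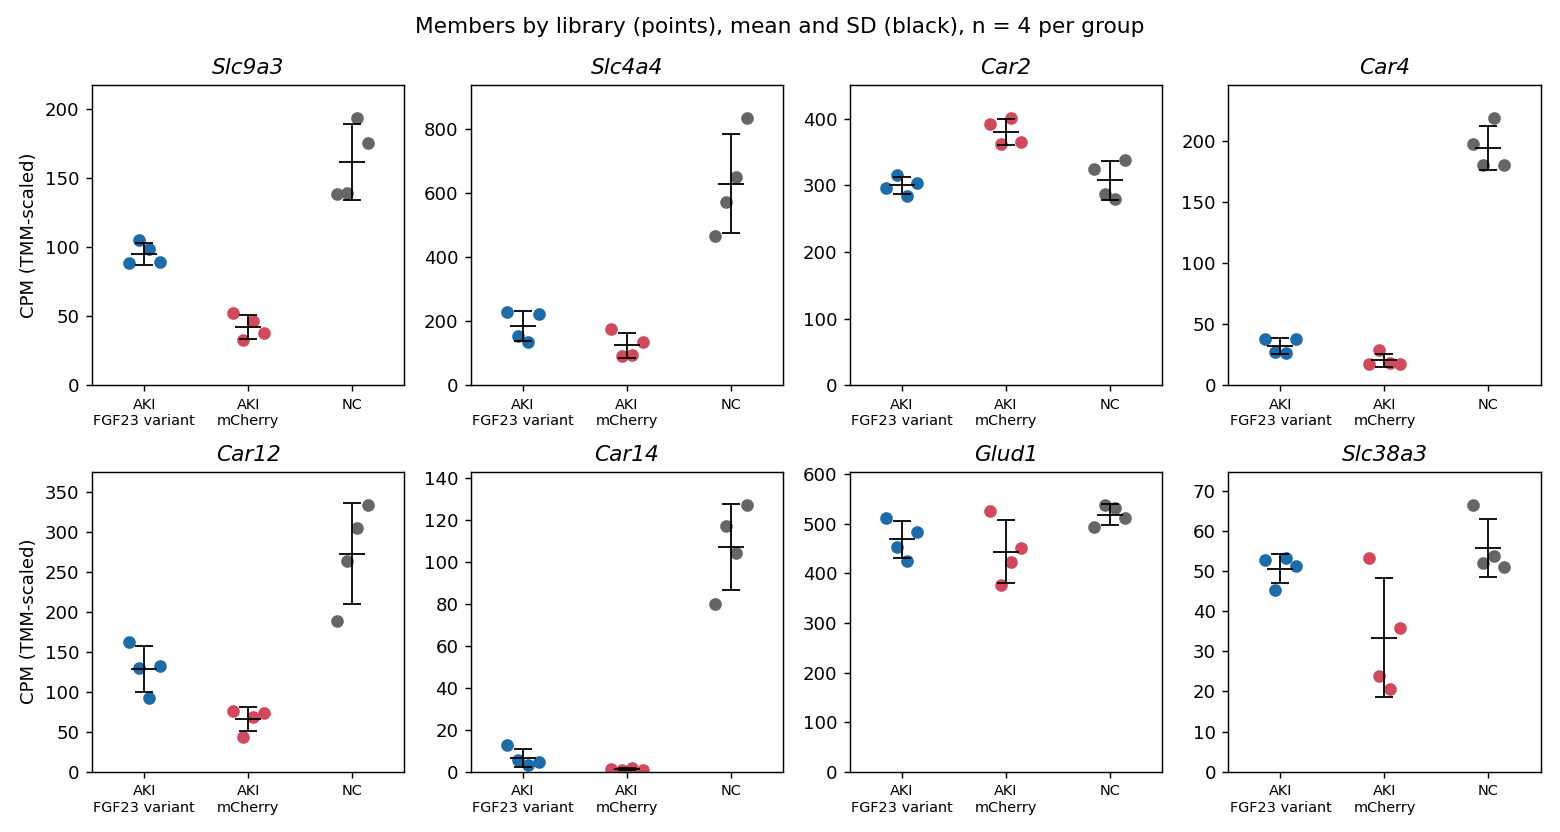
CPM after TMM scaling of the 8 genes (vertical axes, linear and from 0) by group, with a point per library and the mean and SD in black (n = 4 per group). Car14 averaged 6.65 CPM in FGF23 variant kidneys, 1.20 in mCherry kidneys and 107 in NC kidneys, while the Glud1 points of the 3 groups overlap.

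Slc9a3, the exchanger through which most proximal protons leave the cell, stood in 3 separate bands. It had 88.1, 105, 98.1 and 88.8 CPM in FGF23 variant kidneys, 52.2, 32.6, 46.4 and 37.8 CPM in mCherry kidneys, and 138, 139, 193 and 175 CPM in NC kidneys. No FGF23 variant library overlapped either other group. It was 2.25-fold higher in FGF23 variant than in mCherry kidneys (log2 fold change 1.17 ± 0.15, edgeR adjusted p = 0.000903). Against NC, it was 3.77-fold lower in mCherry kidneys (-1.92 ± 0.17, adjusted p = 6.06e-06) and 1.68-fold lower in FGF23 variant kidneys (-0.75 ± 0.12, adjusted p = 0.000703).

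Slc4a4, the exit path for bicarbonate toward the blood, fell in both injured groups relative to NC. It had 229, 152, 135 and 221 CPM in FGF23 variant kidneys, 176.3, 90.9, 94.9 and 135 CPM in mCherry kidneys, and 465, 571, 649.7 and 834 CPM in NC kidneys. The injured groups overlapped each other and both lay below every NC library. It was 4.99-fold lower in mCherry than in NC kidneys (-2.32 ± 0.24, edgeR adjusted p = 2.19e-05) and 3.37-fold lower in FGF23 variant than in NC kidneys (-1.75 ± 0.22, adjusted p = 0.000106). The log2 difference between FGF23 variant and mCherry kidneys was 0.57 ± 0.24, with a 95% interval of 0.04 to 1.10 and an adjusted p of 0.11. Scaled by library totals alone, that difference was called (0.77, adjusted p = 0.0453), and likewise without mCherry library 1 (0.79, adjusted p = 0.0335).

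Car14, a membrane carbonic anhydrase whose active site faces outward, moved furthest of the 8 in each comparison. It had 12.8, 5.71, 3.25 and 4.82 CPM in FGF23 variant kidneys, 1.12, 0.660, 1.92 and 1.08 CPM in mCherry kidneys, and 80.0, 117, 104 and 127 CPM in NC kidneys. These CPM stand for 33 to 121 counts in mCherry libraries, so the low level was still counted. Every FGF23 variant library lay above every mCherry library and far below every NC library, and library 1 was the highest of its group. The gene was 87.5-fold lower in mCherry than in NC kidneys (-6.45 ± 0.30, edgeR adjusted p = 1.01e-07). That was the 57th lowest log2 fold change of 18724 genes tested. It was 15.9-fold lower in FGF23 variant than in NC kidneys (-3.99 ± 0.38, adjusted p = 2.19e-05). It was 5.54-fold higher in FGF23 variant than in mCherry kidneys (2.47 ± 0.46, 95% interval 1.46 to 3.48, adjusted p = 0.00542), and 1.94 on the log2 scale without FGF23 variant library 1 (adjusted p = 0.0109).

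Car4, a carbonic anhydrase anchored to the outer face of the membrane, followed the same order with a smaller gap between injured groups. It had 38.0, 27.0, 26.0 and 37.9 CPM in FGF23 variant kidneys, 17.6, 28.4, 17.8 and 17.2 CPM in mCherry kidneys, and 198, 181, 219 and 181 CPM in NC kidneys. The mCherry library with 28.4 CPM lay above 2 FGF23 variant libraries, and all injured libraries lay far below NC. It was 9.47-fold lower in mCherry than in NC kidneys (-3.24 ± 0.18, edgeR adjusted p = 2.67e-07) and 5.96-fold lower in FGF23 variant than in NC kidneys (-2.57 ± 0.15, adjusted p = 9.71e-07). It was 1.60-fold higher in FGF23 variant than in mCherry kidneys (0.67 ± 0.20, adjusted p = 0.0332). That call was lost without FGF23 variant library 1 (adjusted p = 0.095) or 5 (0.0932), or without mCherry library 1 (0.072), 3 (0.0743) or 4 (0.0824).

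Car12, a transmembrane carbonic anhydrase, is found in several tubule segments. It had 162, 129.6, 92.1 and 132 CPM in FGF23 variant kidneys, 76.2, 43.9, 68.8 and 74.2 CPM in mCherry kidneys, and 189, 264, 305 and 334 CPM in NC kidneys. The 3 groups did not overlap. It was 1.96-fold higher in FGF23 variant than in mCherry kidneys (0.97 ± 0.20, edgeR adjusted p = 0.00865). Against NC it was 4.10-fold lower in mCherry kidneys (-2.04 ± 0.21, adjusted p = 1.94e-05) and 2.09-fold lower in FGF23 variant kidneys (-1.06 ± 0.20, adjusted p = 0.00154).

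Car2, the cytosolic carbonic anhydrase, moved in the opposite direction and by little. It had 296, 316, 284 and 304 CPM in FGF23 variant kidneys, 393, 362, 401 and 365 CPM in mCherry kidneys, and 325, 287, 279 and 339 CPM in NC kidneys. The mCherry libraries lay above all others, while FGF23 variant and NC libraries overlapped. It was 1.26-fold lower in FGF23 variant than in mCherry kidneys (-0.34 ± 0.09, edgeR adjusted p = 0.02). It was 1.26-fold higher in mCherry than in NC kidneys (0.33 ± 0.10, adjusted p = 0.0148). FGF23 variant and NC kidneys differed by -0.01 ± 0.09, with a 95% interval of -0.20 to 0.18 (adjusted p = 0.911).
These small differences depended on scaling and on single libraries. Under library totals alone the difference between FGF23 variant and mCherry kidneys was -0.14 (adjusted p = 0.325), and Car2 was 0.32 higher on the log2 scale in FGF23 variant than in NC kidneys (adjusted p = 0.00805). The first call was also lost without FGF23 variant library 1 (adjusted p = 0.0581) or 5 (0.0523), and the rise in mCherry over NC kidneys without NC library 2 (0.0521) or 3 (0.0533). Car2 is also abundant in red blood cells and in intercalated cells, the acid-secreting cells of the collecting duct. The summed CPM of 7 red blood cell markers was 95.7 to 311 in FGF23 variant, 24.5 to 182 in mCherry and 109 to 304 in NC kidneys. That of 8 intercalated cell markers was 319 to 405 in FGF23 variant, 229 to 244 in mCherry and 321 to 409 in NC kidneys. Those 8 did not move together. In mCherry against NC kidneys 1 was called higher and 4 lower, beside 27.2% and 26.0% of all genes tested. Atp6v1g3 averaged 35.9 CPM in FGF23 variant, 47.1 in mCherry and 29.6 in NC kidneys. Foxi1 averaged 31.1, 30.6 and 28.6 CPM in the same order. Both marker sums had their lowest median in mCherry kidneys, and the part of these cells in the Car2 values was not tested.

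Glud1, whose enzyme frees ammonia from glutamate, did not pass the test in any comparison. It had 512, 453, 426 and 483 CPM in FGF23 variant kidneys, 526, 376, 424 and 450.5 CPM in mCherry kidneys, and 493, 538, 532 and 511 CPM in NC kidneys. All 3 groups overlapped, and mCherry library 2 was the lowest of the 12. The log2 difference was 0.08 ± 0.12 between FGF23 variant and mCherry kidneys (95% interval -0.19 to 0.34, edgeR adjusted p = 0.662). It was -0.20 ± 0.11 between mCherry and NC kidneys (-0.46 to 0.05, adjusted p = 0.156), and -0.29 without mCherry library 1, where it was called (adjusted p = 0.0481). It was -0.13 ± 0.08 between FGF23 variant and NC kidneys (-0.32 to 0.06, adjusted p = 0.25). The pseudogene Glud-ps was counted at 0.681 to 2.32 CPM across the 12 libraries, and counting could split reads between it and Glud1.

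Slc38a3, the transporter that brings glutamine into the cell from the blood side, was spread widely in mCherry kidneys. It had 52.6, 45.2, 53.3 and 51.2 CPM in FGF23 variant kidneys, 53.2, 23.9, 20.5 and 35.8 CPM in mCherry kidneys, and 66.4, 52.0, 53.7 and 50.9 CPM in NC kidneys. In mCherry kidneys 3 libraries lay below all others and library 1 lay among them. It was 1.65-fold lower in mCherry than in NC kidneys (-0.72 ± 0.26, edgeR adjusted p = 0.0376). That call was lost under library totals alone (-0.59, adjusted p = 0.0858), with no filter on low counts (adjusted p = 0.0593), and without any 1 of mCherry libraries 2 to 4 or NC libraries 1 to 4 (0.0564 to 0.0974). The difference between FGF23 variant and mCherry kidneys was 0.60 ± 0.25 (0.04 to 1.17, adjusted p = 0.112), and was called without mCherry library 1 (0.92, adjusted p = 0.0102) and under library totals alone (0.80, adjusted p = 0.0459). FGF23 variant and NC kidneys differed by -0.12 ± 0.10 (-0.35 to 0.10, adjusted p = 0.371).

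**Figure D2:**
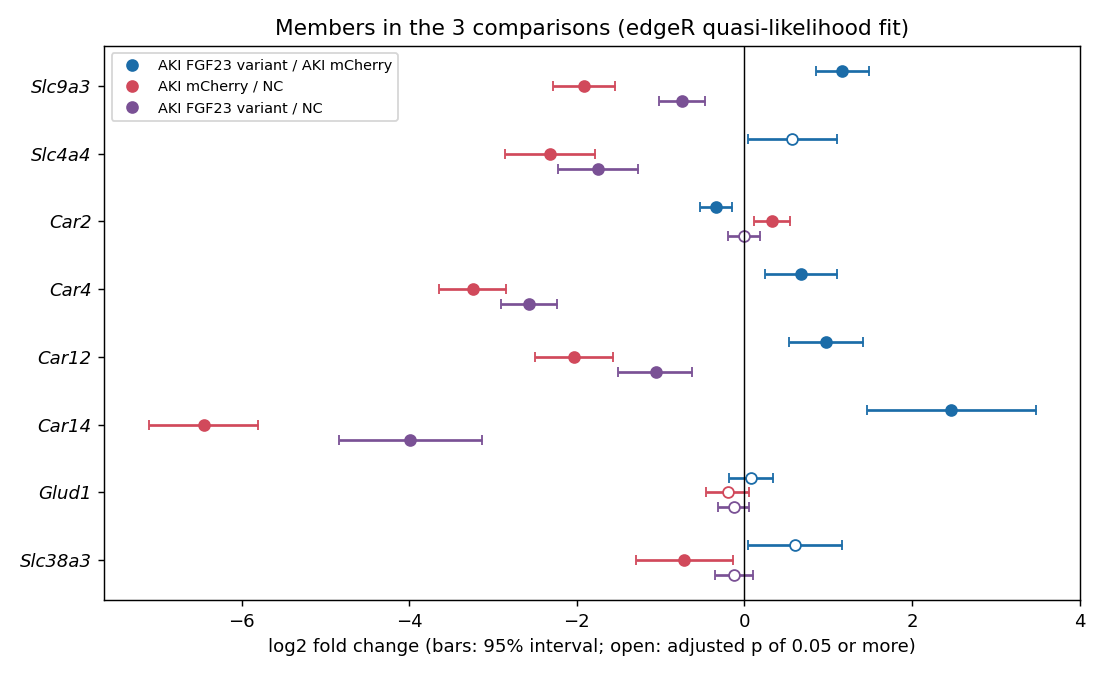
Log2 fold changes of the 8 genes (horizontal axis) in the 3 comparisons, with 95% intervals from the edgeR fit on 4 libraries per group; open points had an adjusted p of 0.05 or more. Between FGF23 variant and mCherry kidneys Car14 was at 2.47 and Car2 at -0.34, and between mCherry and NC kidneys they were at -6.45 and 0.33.

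Within single libraries, the mix of the 4 carbonic anhydrases differed between the groups. As shares of their summed FPKM, Car2 made up 72.8% to 81.5% in FGF23 variant kidneys, 88.0% to 89.8% in mCherry kidneys and 37.4% to 46.1% in NC kidneys. Car4 made up 8.40% to 11.8% in FGF23 variant, 4.91% to 8.49% in mCherry and 28.2% to 36.2% in NC kidneys. Car14 made up 0.886% to 2.99% in FGF23 variant, 0.143% to 0.406% in mCherry and 10.8% to 15.8% in NC kidneys. The Car2 and Car14 shares did not overlap between any 2 groups, and those of Car4 overlapped narrowly between the injured groups. Car12 made up 8.42% to 12.7% in FGF23 variant, 3.40% to 5.75% in mCherry and 8.54% to 13.5% in NC kidneys, so its share separated mCherry kidneys alone. The summed FPKM of these 4 was 150.1 to 176.3 in FGF23 variant, 140.0 to 172 in mCherry and 237 to 262 in NC kidneys. These 4 are a part of the carbonic anhydrases listed here. Their share of the FPKM of all those found was 64.7% to 70.8% in FGF23 variant kidneys. It was 47.0% to 57.3% in mCherry and 73.5% to 78.1% in NC kidneys. Car15, outside the 4, averaged 55.2 FPKM in FGF23 variant, 115 in mCherry and 41.0 in NC kidneys. FPKM is scaled by library totals and not by TMM, so sums between groups are less comparable than shares within a library.

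**Figure D3:**
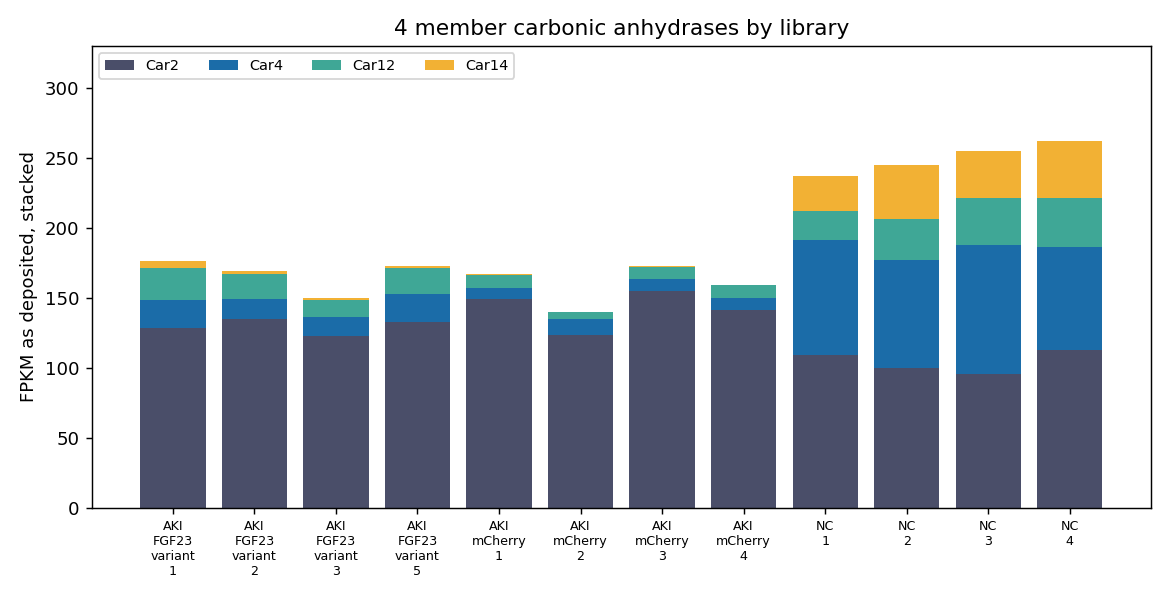
Deposited FPKM of Car2, Car4, Car12 and Car14 stacked for each of the 12 libraries (vertical axis from 0). Car2 fills at least 88.0% of each mCherry bar and at most 46.1% of each NC bar.

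Per length, Car2 and Glud1 were the 2 highest of the 8 in every group. In FGF23 variant kidneys Car2 averaged 129.5 ± 5.51 FPKM and Glud1 116 ± 9.92 FPKM (SD, n = 4), with overlapping ranges. Slc9a3, Car12, Car4 and Slc4a4 followed within 17.0 to 18.0 FPKM, and neighbours in that order overlapped. Slc38a3 at 8.84 to 10.5 FPKM and Car14 at 2.73 ± 1.74 FPKM came last, each separate from its neighbours.
In mCherry kidneys Car2 averaged 142 ± 13.8 FPKM and Glud1 95.7 ± 17.0 FPKM, without overlap. Slc4a4, Car4, Car12, Slc9a3 and Slc38a3 ran down to 5.74 FPKM from 9.97 FPKM, with neighbours overlapping, and Car14 was last at 0.420 ± 0.207 FPKM. In NC kidneys Car2 at 104 ± 8.00 FPKM and Glud1 at 101 ± 5.69 FPKM overlapped, and Car4 came next at 81.4 ± 7.96 FPKM, separate from both neighbours. Slc4a4, Car14, Car12 and Slc9a3 ran down to 24.1 FPKM from 45.6 FPKM with neighbours overlapping. Slc38a3 was last at 8.68 ± 1.10 FPKM, so Car14 stood above 3 of the genes in NC kidneys and last in both injured groups.

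The scaffold, exchanger and pump genes around the transporters were mostly lower in mCherry than in NC kidneys. Of 25 other acid-base transport genes, 6 were higher and 1 lower in FGF23 variant than in mCherry kidneys, beside 11.7% higher and 11.4% lower of all genes tested. In mCherry against NC kidneys 1 was higher and 17 were lower (27.2% and 26.0% of all genes), and in FGF23 variant against NC kidneys 1 was higher and 13 lower (21.7% and 20.6%). Their median log2 fold changes were 0.14 (FGF23 variant against mCherry), -0.60 (mCherry against NC) and -0.35 (FGF23 variant against NC), and the medians over all genes tested are those given above. Scaled by library totals alone, which puts the median of all genes at 0.21, the first comparison had 13 higher and 0 lower.
Pdzk1, a scaffold under the brush border, had 233 to 487 CPM in FGF23 variant, 99.0 to 159 in mCherry and 1033 to 1142 in NC kidneys. The 3 ranges were separate, and the gene rose 2.37-fold in FGF23 variant over mCherry kidneys (log2 fold change 1.25 ± 0.24, edgeR adjusted p = 0.0069). Nherf1, which tethers Slc9a3, averaged 253 ± 26.4 CPM in FGF23 variant, 230.3 ± 17.8 in mCherry and 332 ± 16.2 in NC kidneys (SD, n = 4). It was 1.42-fold lower in mCherry than in NC kidneys (adjusted p = 0.00124) and differed by 0.14 ± 0.10 between FGF23 variant and mCherry kidneys (adjusted p = 0.358, and 0.0338 under library totals alone).

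Slc9a8, another sodium-proton exchanger, had similar levels in both injured groups. It had 46.9 to 60.8 CPM in FGF23 variant, 46.4 to 55.5 in mCherry and 258 to 351 in NC kidneys. It was 5.91-fold lower in mCherry than in NC kidneys (edgeR adjusted p = 1.13e-07), and FGF23 variant and mCherry kidneys differed by 0.05 ± 0.10 (adjusted p = 0.752). The sulfate-anion exchanger Slc26a1 and the potassium channel Kcnj15 were likewise 3.28-fold and 3.21-fold lower in FGF23 variant than in NC kidneys (adjusted p = 9.66e-05 and 0.000227). Neither passed the test between FGF23 variant and mCherry kidneys (-0.08 ± 0.20, adjusted p = 0.818, and -0.16 ± 0.26, adjusted p = 0.69).
Genes of the distal acid secretors stood in the same list. Atp6v0a4, a proton pump subunit, had 206 to 234 CPM in FGF23 variant, 92.2 to 131 in mCherry and 200.1 to 249 in NC kidneys, and was 1.88-fold higher in FGF23 variant than in mCherry kidneys (adjusted p = 0.00133). Slc26a7, a chloride-bicarbonate exchanger, was scarce, with 1.88 to 3.98 CPM in FGF23 variant, 0.460 to 1.45 in mCherry and 2.76 to 6.14 in NC kidneys. It had 23 to 83 counts in mCherry libraries, and was 3.20-fold higher in FGF23 variant than in mCherry kidneys (1.68 ± 0.36, adjusted p = 0.0102). Slc4a1, the anion exchanger of red blood cells and intercalated cells, had 11.6 to 38.7 CPM in FGF23 variant, 1.74 to 4.47 in mCherry and 44.6 to 51.6 in NC kidneys. It was 7.79-fold higher in FGF23 variant than in mCherry kidneys (adjusted p = 0.00133). The intercalated cell and red blood cell marker sums given with Car2 had their lowest medians in mCherry kidneys too, both lists hold Slc4a1, and their part in these values was not tested.

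Among the other carbonic anhydrases, 10 of 12 listed genes were tested, and they moved in both directions. In FGF23 variant against mCherry kidneys 4 were higher and 3 lower, beside 11.7% and 11.4% of all genes tested. In mCherry against NC kidneys 3 were higher and 4 lower (27.2% and 26.0% of all genes), and in FGF23 variant against NC kidneys 2 were higher and 4 lower (21.7% and 20.6%). The higher counts against NC stood near those shares. Median log2 fold changes were 0.08 (FGF23 variant against mCherry), -0.67 (mCherry against NC) and -0.39 (FGF23 variant against NC). Most were scarce, and with a mean of at least 5 CPM required, 0 were higher in FGF23 variant than in mCherry kidneys. Under library totals alone 1 was lower there.
Car5a, a mitochondrial form, had 1.17 to 4.06 CPM in FGF23 variant, 0 to 0.127 in mCherry and 4.97 to 6.44 in NC kidneys. It rose 47.7-fold in the fit of FGF23 variant against mCherry kidneys (5.58 ± 0.66, edgeR adjusted p = 0.000795) and was 95.5-fold lower in mCherry than in NC kidneys (adjusted p = 2.55e-06). Folds of this size depend on few counts, here 0 to 8 per mCherry library. Without mCherry library 3 the log2 fold changes were 6.32 for FGF23 variant against mCherry kidneys and -7.30 for mCherry against NC kidneys, and with any 1 other library left out they ran down to 5.22 and up to -6.23. Car9, a membrane form induced by low oxygen, had 3.41 to 7.96 CPM in FGF23 variant, 1.72 to 2.72 in mCherry and 10.5 to 19.1 in NC kidneys (2.65-fold higher in FGF23 variant than in mCherry kidneys, adjusted p = 0.00718). Car8, a relative without enzyme activity, was 2.58-fold higher in FGF23 variant than in mCherry kidneys (adjusted p = 0.000738).

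Car15 and Car13 had the opposite order. Car15, which is anchored to the membrane as Car4 is, had 87.6 to 124 CPM in FGF23 variant, 195 to 308 in mCherry and 86.0 to 107 in NC kidneys. It was 2.39-fold lower in FGF23 variant than in mCherry kidneys (-1.26 ± 0.17, edgeR adjusted p = 0.00131). Car13, a cytosolic form, had 8.56 to 16.2 CPM in FGF23 variant, 15.9 to 24.3 in mCherry and 2.16 to 3.62 in NC kidneys. It was 1.69-fold lower in FGF23 variant than in mCherry kidneys (adjusted p = 0.0241) and 7.23-fold higher in mCherry than in NC kidneys (adjusted p = 3.03e-06). The first call was lost under library totals alone (0.0709) and without FGF23 variant library 1, 2 or 5 or mCherry library 4 (0.0532 to 0.0678).
Car6, a secreted form, had 1.96 to 2.61 CPM in FGF23 variant kidneys, 0.238 to 0.720 CPM in mCherry kidneys and 0 counts in all 4 NC libraries. Against a floor of 3 counts per NC library it was at least 43.6-fold higher in FGF23 variant and at least 9.43-fold higher in mCherry kidneys, a floor that covers counting error only. It was 4.66-fold higher in FGF23 variant than in mCherry kidneys (adjusted p = 0.00289).

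Glutamine and ammonia genes were called in both directions against NC kidneys. Of 24 listed, 22 were tested. In FGF23 variant against mCherry kidneys 7 were higher and 0 lower by edgeR, 2 were lower at an unadjusted p under 0.05, and DESeq2 and limma-voom each called 1 lower, beside 11.7% higher and 11.4% lower of all genes tested by edgeR. In mCherry against NC kidneys 9 were higher and 11 lower (27.2% and 26.0% of all genes), and in FGF23 variant against NC kidneys 7 were higher and 9 lower (21.7% and 20.6%). Median log2 fold changes were 0.21 (FGF23 variant against mCherry), -0.43 (mCherry against NC) and -0.25 (FGF23 variant against NC). Under library totals alone, 11 were higher and 0 lower in FGF23 variant than in mCherry kidneys.
Glul, which joins ammonia back onto glutamate, averaged 303 ± 46.2 CPM in FGF23 variant, 279.8 ± 48.1 in mCherry and 482 ± 64.7 in NC kidneys (SD, n = 4). It was 1.70-fold lower in mCherry than in NC kidneys (edgeR adjusted p = 0.00101) and did not pass the test between FGF23 variant and mCherry kidneys (0.12 ± 0.15, adjusted p = 0.599). Pck1, which carries the carbon of glutamine into glucose synthesis, had 367 to 954 CPM in FGF23 variant, 67.8 to 461 in mCherry and 1276 to 1917 in NC kidneys. It was 6.73-fold lower in mCherry than in NC kidneys (adjusted p = 0.000608), and 1.24 ± 0.51 higher on the log2 scale in FGF23 variant than in mCherry kidneys without passing the test (adjusted p = 0.102, and 0.0297 without mCherry library 1).

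Transporters of glutamine and other amino acids were among the 7 that rose in FGF23 variant over mCherry kidneys. Slc7a7, Slc7a8 and Slc6a19 rose 1.92-fold, 1.77-fold and 1.58-fold (edgeR adjusted p = 0.000665, 0.0161 and 0.0312), and all 3 were lower in mCherry than in NC kidneys. Slc7a7 and Slc6a19 also stand in the proximal marker list below. The Slc6a19 call was lost with no filter on low counts (0.0522) and without FGF23 variant library 1, 2 or 5 or mCherry library 4 (0.0573 to 0.0906). Slc3a2, the heavy chain that partners Slc7a7 and Slc7a8, had 366 to 426 CPM in FGF23 variant, 196 to 281 in mCherry and 96.2 to 147 in NC kidneys. It was therefore higher in both injured groups than in NC (3.01-fold in FGF23 variant kidneys, adjusted p = 1.07e-05). Rhcg, an ammonia channel of the collecting duct, was 1.87-fold higher in FGF23 variant than in mCherry kidneys (adjusted p = 0.00259). The mitochondrial dicarboxylate carrier Slc25a10 was 3.90-fold lower in mCherry than in NC kidneys (adjusted p = 1.13e-06). Aqp8, a channel known to pass ammonia, was 8.79-fold higher in FGF23 variant than in NC kidneys (adjusted p = 0.000339), with 2.91 to 6.77 CPM in FGF23 variant and 0.129 to 0.597 CPM in NC kidneys. Aqp8 was also called higher in mCherry than in NC kidneys, with 2.04 to 7.22 CPM in mCherry kidneys, and did not pass the test between the injured groups.

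**Figure D4:**
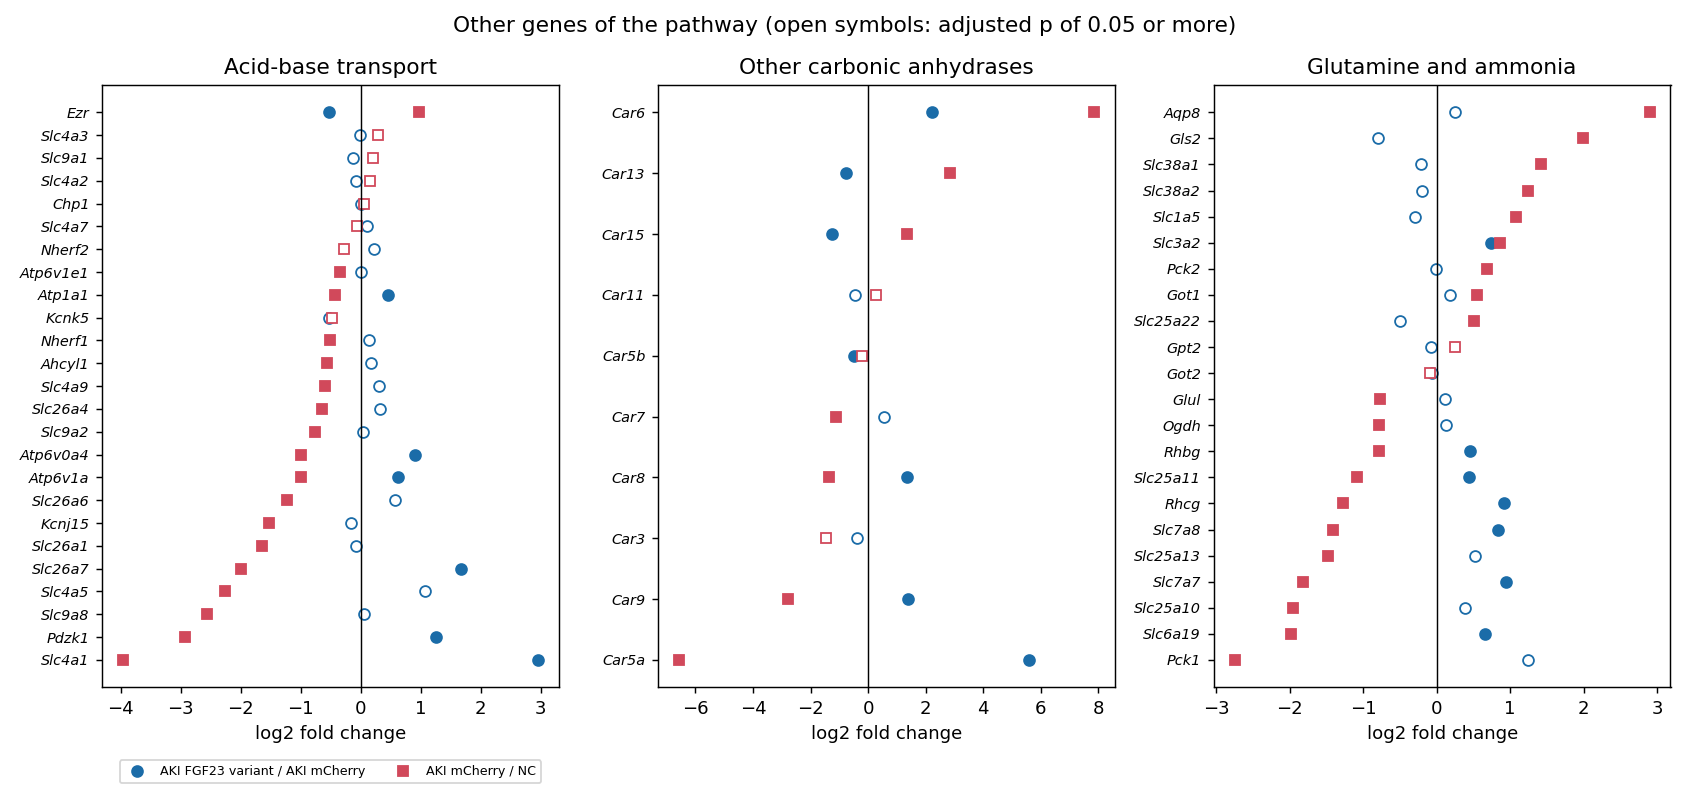
Log2 fold changes (horizontal axes, ranges differ between panels) of other acid-base transport, carbonic anhydrase and glutamine or ammonia genes, for FGF23 variant over mCherry kidneys (circles) and mCherry over NC kidneys (squares); open symbols had an adjusted p of 0.05 or more. The 2 comparisons share the mCherry libraries. Slc4a1 was at 2.96 and -3.96, and Pdzk1 at 1.25 and -2.92.

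Among 17 genes that sense acid or regulate these transporters, 2 were higher and 3 lower in FGF23 variant than in mCherry kidneys, of 16 tested, beside 11.7% and 11.4% of all genes. In mCherry against NC kidneys 5 were higher and 5 lower of 17 tested (27.2% and 26.0% of all genes), and in FGF23 variant against NC kidneys 3 were higher and 4 lower (21.7% and 20.6%). The counts against NC stood near those shares, and so did the 2 higher of 16. Median log2 fold changes were -0.04 (FGF23 variant against mCherry), -0.49 (mCherry against NC) and 0.14 (FGF23 variant against NC). Under library totals alone, 4 were higher and 1 lower in the first comparison. Agtr1a, an angiotensin II receptor that stimulates Slc9a3, had 17.1 to 33.9 CPM in FGF23 variant, 9.78 to 14.2 in mCherry and 38.7 to 51.3 in NC kidneys (2.29-fold higher in FGF23 variant than in mCherry kidneys, edgeR adjusted p = 0.00379). Ednrb, the endothelin B receptor, was 2.51-fold higher in FGF23 variant than in mCherry kidneys (adjusted p = 0.00333). Its ligand Edn1 was 4.82-fold higher in mCherry than in NC kidneys (adjusted p = 5.23e-05) and did not pass the test between the injured groups (adjusted p = 0.838). The kinases Ptk2b and Sgk1 were 1.69-fold and 1.36-fold lower in FGF23 variant than in mCherry kidneys (adjusted p = 0.00625 and 0.0338). The Sgk1 call was lost under library totals alone (0.243), with no filter on low counts (0.0583), and without FGF23 variant library 1, 2 or 5 or mCherry library 1 or 3 (0.0598 to 0.0989). Insrr, a receptor that senses alkali, was 2.79-fold lower in mCherry than in NC kidneys (adjusted p = 0.00012). Pth1r, the parathyroid hormone receptor, was 2.39-fold lower in mCherry and 2.64-fold lower in FGF23 variant than in NC kidneys (adjusted p = 6.18e-06 and 6.73e-07).

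Genes that ran most closely with each of the 8 were taken by Pearson's r of log2(CPM + 1) over the 12 libraries, among 11043 genes with a mean of at least 5 CPM. The libraries share group differences and depth, so r is a description. Closest to Slc9a3 was Bbs1 (0.988), and to Slc4a4 were Spag9 (0.993), Tex2 and Arhgef28 (0.992 each). Closest to Car4 was Apeh (0.994), to Car12 Clcn3 (0.994), and to Car14 were Clec2h, Gna14 and Pdk2 (0.995 each). Car2 ran most closely with another carbonic anhydrase, Car15 (0.917), followed by Krt14 (0.913) and Plekha2 (0.907). Glud1 and Slc38a3, whose groups overlapped, reached 0.952 with Lrrc8d and 0.930 with Armc8.

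Marker sums of proximal cells were lower in every injured library than in any NC library. Slc9a3, Slc4a4, Car4, Car12 and Car14 were called lower than in NC kidneys in both injured groups. Slc38a3 was called lower and Car2 higher in mCherry kidneys alone, and Glud1 was called in neither group. The summed CPM of 12 markers of the first and second proximal segments was 2520 to 5249 in FGF23 variant, 1766 to 2713 in mCherry and 12382 to 17231 in NC kidneys. That of 6 markers of the last proximal segment was 268 to 524 in FGF23 variant, 140.0 to 221 in mCherry and 1557 to 2249 in NC kidneys. That of 8 injured tubule markers was 913 to 2506 in FGF23 variant, 5081 to 5747 in mCherry and 122 to 204 in NC kidneys. The 3 groups separated on the injured tubule and last-segment sums, and the injured groups overlapped on the first. All listed markers of these 3 sets were counted in every group, and their part in the changes of the 8 genes was not tested.
Markers of other cell types also differed between groups. Thick ascending limb markers summed to 4968 to 7450 CPM in FGF23 variant, 3086 to 3514 in mCherry and 5808 to 8639 in NC kidneys, with every mCherry library below the others. Endothelial markers summed to 346 to 457 CPM in FGF23 variant, 203 to 322 in mCherry and 301 to 377 in NC kidneys. Principal cell markers summed to 336 to 474 CPM in FGF23 variant, 346 to 734 in mCherry and 428 to 547 in NC kidneys. Of these 5 markers, 0 were called higher and 3 lower in mCherry than in NC kidneys. Aqp2, with the largest values, averaged 314 CPM in mCherry and 196 in NC kidneys, and Aqp3 averaged 36.4 and 89.7 CPM. Macrophage and neutrophil markers summed to 95.8 to 136 CPM in FGF23 variant, 105 to 253 in mCherry and 127 to 182 in NC kidneys. These sums join opposite changes. Of 9 tested in mCherry against NC kidneys, 4 were called higher and 2 lower, beside 27.2% and 26.0% of all genes. Cd68 averaged 42.2 CPM in mCherry and 2.78 in NC kidneys, and Csf1r averaged 24.2 and 81.2 CPM. Skeletal muscle markers summed to at most 0.887 CPM in FGF23 variant, 1.14 in mCherry and 1.47 in NC kidneys, with Tnnt3 at 0 in both injured groups.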

How the data were processed

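Per the labels' protocols, poly(A) RNA from kidney was made into dUTP strand-marked libraries and sequenced as read pairs. The tools fastp, StringTie and edgeR and the build GRCm39 are listed in the submitters' processing notes. An aligner, annotation or tool version was not given in the sources used here. Per the file headers, the deposited files hold a count and an FPKM value for each of 32047 genes, of which 31942 were paired with a symbol. Low counts of 4 occurred 11995 times, against 5847 for 3 and 3638 for 5, so deposited counts were not taken as independent molecules. Pairs of libraries within a group were compared by chi-square (34.1 to 148 per degree of freedom), and none was treated as a duplicate.

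The 8 libraries of each comparison were fitted separately in edgeR 4.0.16 (R 4.3.3) by the quasi-likelihood test after filterByExpr and TMM scaling, with p-values adjusted by Benjamini-Hochberg and called under 0.05. The script was tested on simulated data. These held far fewer changed genes than were called here, so scaling under changes this broad was not tested. CPM used TMM factors over the 12 libraries. Deposited FPKM served for levels between genes and for the carbonic anhydrase shares, sums and Car15 levels set side by side between groups. Alternatives were other scalings and filters, DESeq2 1.42.0, limma-voom (limma 3.58.1), a joint fit of the 12 libraries, a replicate block and leaving out each library. Tables and figures were made in Python 3.11.15.

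The members and the 4 lists were chosen with earlier results of these data known. Of each list, per comparison, the rule names up to 4 called genes without overlap and with a mean of at least 1 CPM, by fold change, plus Glul, Pck1, Nherf1 and Pdzk1, and for each member the 3 closest genes, of which some are printed. 1 more gene that the rule names is not reported here and is left out of its list. Nherf1 was matched by its older symbol, Slc9a3r1. Car10, Glud2 and the marker Myh4 were not matched and are not analysed here. Promoters are RefSeq's on GRCm38.p6, another build than that of the files.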

Additional observations from a re-analysis of the deposited data

Results flagged for a closer look

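In 114 sets of 4 libraries, made of 38 named genes in 3 groups, 8 held a library whose gap to its nearest neighbour took up more of the group's range than Dixon's 95% limit. Chance alone flags about 1 in 20 such sets. Of the 8 genes, only Car4 had such a library. mCherry library 2 had 28.4 CPM of Car4, and the other 3 mCherry libraries had 17.2 to 17.8 CPM. Without it Car4 was 0.89 higher on the log2 scale in FGF23 variant than in mCherry kidneys (edgeR adjusted p = 0.00855).

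The same mCherry library had 7.22 CPM of Aqp8, with 2.04 to 2.31 CPM in the others. Among FGF23 variant libraries, library 1 had 6.77 CPM of Aqp8, with 2.91 to 3.49 CPM in the others, and library 2 had 234 CPM of Atp6v0a4, with 206 to 208 CPM in the others. Among NC libraries, library 1 had 1142 CPM of Pdzk1 (the others 1033 to 1042) and 96.2 CPM of Slc3a2 (the others 144 to 147). NC library 4 had 0.129 CPM of Aqp8 (the others 0.570 to 0.597) and 578 CPM of Glul (the others 439.7 to 461).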

How the results depend on the processing

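Of the 8 genes, Slc9a3, Car12 and Car14 kept their direction and their call between FGF23 variant and mCherry kidneys under every alternative that gave a value (a mean of at least 5 CPM leaves Car14 untested). Slc9a3, Slc4a4, Car4, Car12 and Car14 did so between mCherry and NC kidneys. The calls of Car2, Car4, Slc4a4, Slc38a3 and Glud1 that changed are given with the genes, and the causes were not tested. Among named list genes, leaving out a library ended a call 13 times and made one 2 times between FGF23 variant and mCherry kidneys, and ended 10 and made 3 between FGF23 variant and NC kidneys. Other settings ended 8 and made 5, and ended 17 and made 2. Between mCherry and NC kidneys no call of a named list gene changed under any alternative run.

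Library totals alone puts the median log2 fold change of all genes at 0.21 (FGF23 variant against mCherry), 0.12 (mCherry against NC) and 0.34 (FGF23 variant against NC), where TMM puts it at 0.0084, -0.0026 and 0.011, and the share of calls that are higher becomes 79.7%, 59.6% and 78.9%, against 50.6%, 51.2% and 51.3% with TMM. Under it 4060 genes were higher and 1035 lower in FGF23 variant than in mCherry kidneys (2199 and 2148 with TMM), with 0 of the 8 genes lower. Against NC, 7829 were higher and 2096 lower in FGF23 variant kidneys (4123 and 3912 with TMM), with 1 of the 8, Car2, higher. Of the lists, in FGF23 variant against mCherry kidneys, acid-base transport had 13 higher and 0 lower, carbonic anhydrases 1 lower, glutamine and ammonia genes 11 higher and 0 lower, and acid sensing 4 higher and 1 lower. In mCherry against NC kidneys acid-base transport had 4 higher. In FGF23 variant against NC kidneys acid-base transport had 8 higher and 6 lower, carbonic anhydrases 2 lower, and acid sensing 8 higher and 2 lower. Signs turned under it for Slc26a1 (0.12), Kcnj15 (0.05), Edn1 (0.10) and Pth1r (0.07) between FGF23 variant and mCherry kidneys. Between FGF23 variant and NC kidneys they turned for Car2 (0.32), Glud1 (0.20), Slc38a3 (0.21), Slc26a7 (0.02), Atp6v0a4 (0.25) and Ptk2b (0.10).

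The main fits did not pair libraries by replicate number. As deviations from their group means, same-numbered libraries correlated at 0.081 to 0.202 between FGF23 variant and mCherry kidneys. The values were -0.324 to 0.085 between mCherry and NC, and -0.185 to -0.090 between FGF23 variant and NC. In the first comparison, 3 of 6 libraries correlated best with their own number, and 0 of 8 and 0 of 6 in the others. Pairing between the injured groups was left undecided by these values. The fit with the number as a replicate block kept only libraries whose number occurs in both groups. That left 6 libraries in each FGF23 variant comparison, without FGF23 variant library 5 and library 4 of the other group, and 8 in mCherry against NC. Fewer libraries and the block itself cannot be told apart in the FGF23 variant comparisons. Under the block, 944 genes were higher and 766 lower in FGF23 variant than in mCherry kidneys, with 0 of the 8 genes lower. Car4 (adjusted p = 0.182) and Car2 (0.12) lost their calls there, and Slc4a4 gained one (0.0488). The Car2 rise in mCherry over NC kidneys was lost (0.056), leaving 0 higher. In FGF23 variant against NC kidneys 2382 genes were higher and 2333 lower, Car12 lost its call (0.0655), and Car2 turned to 0.03 and Car8 to -0.02. Under the block, lists in FGF23 variant against mCherry kidneys had 0 lower (acid-base transport), 1 lower (carbonic anhydrases) and 1 lower (acid sensing). Against NC they had 0 higher and 6 lower (acid-base transport), 2 lower (carbonic anhydrases), and 1 higher and 1 lower (acid sensing).

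A mean of at least 5 CPM left 0 other carbonic anhydrases higher in FGF23 variant than in mCherry kidneys, 1 lower in mCherry than in NC, and 1 higher and 2 lower in FGF23 variant than in NC, where acid sensing had 1 higher. Glutamine and ammonia genes lower in FGF23 variant than in mCherry kidneys numbered 1 under DESeq2, under limma-voom and with all 12 libraries in 1 fit. Against NC, limma-voom called 5 acid sensing genes higher in FGF23 variant kidneys, and the joint fit 2 carbonic anhydrases lower. Limma-voom turned Car2 to 0.02 and Car8 to -0.01 there and Slc9a8 to -0.0034 between the injured groups. Car8 was at -0.0028 with at least 5 CPM and -0.0036 in the joint fit.

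With 1 library left out at a time, 3 to 5 of the 8 genes were higher and 0 to 1 lower in FGF23 variant than in mCherry kidneys, 0 to 1 higher and 5 to 7 lower in mCherry than in NC, and 0 higher and 5 lower in FGF23 variant than in NC. Over all genes the first comparison gave 1252 to 2088 higher and 1158 to 2171 lower, lowest in both directions without FGF23 variant library 1. In it the lists gave 4 to 8 higher and 0 to 2 lower (acid-base transport), 2 to 3 lower (carbonic anhydrases), 5 to 8 higher and 0 to 1 lower (glutamine and ammonia), and 2 to 3 higher and 1 to 3 lower (acid sensing). In mCherry against NC kidneys acid-base transport gave 1 to 2 higher. In FGF23 variant against NC kidneys acid-base transport gave 1 to 2 higher, carbonic anhydrases 2 to 5 lower and acid sensing 3 to 5 higher. Uncalled values that changed sign between the injured groups ran over -0.02 to 0.11 for Slc9a8, -0.18 to 0.06 for Slc26a1, -0.35 to 0.08 for Kcnj15, -0.12 to 0.91 for Aqp8 and -0.32 to 0.09 for Edn1. Between FGF23 variant and NC kidneys they ran over -0.06 to 0.03 for Car2, -0.04 to 0.14 for Car8 and -0.01 to 0.16 for Car15. At these depths Car5a and Car6 rest on few counts in their low groups.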
